A study of Mus musculus with 26 samples.

Results

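The mouse knee 8 weeks after destabilization of the medial meniscus (DMM) was compared with the knee 4 weeks after the same surgery, using the 3 DMM 8 weeks pools and the 3 DMM 4 weeks pools, chosen by their titles, of 26 pools in all. In DMM surgery the ligament that anchors the medial meniscus to the tibia is cut, so that load passes directly onto the cartilage of the medial compartment and osteoarthritis develops. The mice were male C57BL/6 animals operated at 12 weeks of age, so those of the DMM 8 weeks group were 20 weeks old and those of the DMM 4 weeks group 16 weeks old when the joints were taken. Sham-operated mice of the same strain, sex and ages (3 pools at 8 weeks and 3 pools at 4 weeks) gave the change over the same weeks without destabilization. The other arrays of the series came from unoperated mice (time 0, 3 pools), from DMM joints at 2 weeks (2 pools) and 16 weeks (3 pools) and from sham joints at 2 and 16 weeks (3 pools each). RNA of 3 mice was combined in each pool, and 1 Affymetrix mouse array was used per pool. All values are the deposited log2 signals, on which a difference of 1 is a 2-fold change, and all differences are DMM 8 weeks minus DMM 4 weeks unless another pair is named. Weeks after surgery and age run together in these groups and cannot be told apart within the DMM joints.

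The tissue was a block of the medial compartment, with cartilage and subchondral bone of the tibia and femur, synovium and joint capsule. The labels also name ligaments, and the study's methods name the meniscus and any osteophytes. After an injury, fibroblasts of the capsule and synovium and chondrocytes of new osteophytes secrete collagens, proteoglycans and glycoproteins, cross-link them with lysyl oxidases and remodel them with matrix metalloproteinases. Blood cells divide in the marrow that lies beside this tissue within the bone. In bulk tissue of this kind, fewer cells of a type and less RNA per cell cannot be told apart.

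Markers of the labelled tissue were present. Mean signals in DMM 8 weeks and DMM 4 weeks pools were 14.72 and 14.97 for Prg4 (lubricin, of synovium and surface cartilage), 13.49 and 13.73 for Comp and 10.86 and 11.46 for Acan (cartilage), and 13.11 and 13.72 for Ibsp (bone). Scx, a tendon transcription factor, was low at 8.65 and 8.69, and the bone gene Bglap had no probe set of its own on the array. Muscle, fat and marrow were in the block too. Acta1 of skeletal muscle had mean signals of 12.56 and 12.73, Adipoq of fat cells 11.76 and 11.27, and Ngp of neutrophils 15.24 and 15.20. The pools of DMM 4 weeks were the more variable group. The SD of the difference between 2 arrays was 0.168 to 0.201 among DMM 8 weeks pools and 0.205 to 0.310 among DMM 4 weeks pools. Between 2 arrays of the same group it lay between 0.135 and 0.418 over all groups of the series. On the first principal component of all 26 arrays, which held 53.9% of the variance, all DMM 8 weeks pools scored above 0 (18.2 at most), against -7.96, -38.8 and -30.5 for DMM 4 weeks replicates 1 to 3. DMM 4 weeks replicate 1 thus lay nearest to the 8-week pools, and each result that rests on 1 pool is given with and without it.

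Far more genes were lower at 8 weeks than higher. Of 22452 probe sets tested, 3914 (17.4%) differed between DMM 8 weeks and DMM 4 weeks pools at an adjusted p under 0.05 in limma, 1405 of them higher and 2509 lower. Counted as genes, each represented by its brightest tested probe set, 771 of 11502 (6.7%) were higher at 8 weeks and 1449 (12.6%) were lower. The changes were also larger in the downward direction: 129 genes were at least 2-fold lower and 1 gene was at least 2-fold higher, and the median difference over all genes was 0.027. In 4844 of the 11502 genes (42.1%) the 3 pools of one group lay wholly above the 3 pools of the other, and so did 2170 of the 2220 genes called (97.7%). The pools at 8 weeks were the tighter group for most of these genes. Of the 129 genes at least 2-fold lower, 128 (99.2%) had the smaller SD at 8 weeks, with a median SD of 0.124 in DMM 8 weeks pools and 0.432 in DMM 4 weeks pools. Over all genes tested the share was 65.3%, with median SDs of 0.078 in DMM 8 weeks pools and 0.103 in DMM 4 weeks pools. The count of calls turned on which pools were in the comparison. It was 1188 probe sets without DMM 4 weeks replicate 2, 1357 without replicate 3 and 5854 without replicate 1, and 1871, 2243 and 2485 without DMM 8 weeks replicates 1, 2 and 3. No gene called in the whole comparison changed sign when any of the 6 pools was left out. For the 2170 called genes whose pools did not overlap, leaving out 1 pool could not change the sign.

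Several of the genes with the lowest differences are genes of inflammation. Saa3, an acute-phase serum amyloid made locally by stromal cells and macrophages, had signals of 8.61, 8.94 and 8.83 in DMM 8 weeks replicates 1 to 3, against 11.55, 14.76 and 11.35 in DMM 4 weeks replicates 1 to 3. All 3 pools at 8 weeks lay below 9 and none at 4 weeks did, with DMM 4 weeks replicate 2 far above the other pools of its group. The difference was -3.76 ± 0.67 (SE, 13.6-fold lower, adjusted p = 0.00173), and -2.66 without DMM 4 weeks replicate 2. Tnfaip6, a hyaluronan-binding protein induced by inflammatory signals, had 8.40, 8.38 and 8.40 in DMM 8 weeks pools, against 9.75, 11.83 and 9.93 in DMM 4 weeks pools. Its 8-week pools hardly differed from each other and lay below every 4-week pool, and the difference was -2.11 ± 0.40 (4.3-fold lower, adjusted p = 0.00257). Cxcl5, a chemokine that attracts neutrophils, had 7.52, 7.48 and 7.39 in DMM 8 weeks pools, against 8.34, 11.39 and 8.69 in DMM 4 weeks pools. Its 8-week signals were under the level of the signal filter (7.93), which Cxcl5 passed by its mean over all arrays, and they were not tested against background. The groups did not overlap and the difference was -2.01 ± 0.56 (adjusted p = 0.0197), but it rested largely on DMM 4 weeks replicate 2. Without that pool it was -1.06 (adjusted p = 0.139), and leaving out any 1 of the 8-week pools also ended the call for Cxcl5 (adjusted p = 0.0513 to 0.0539).

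The inflammatory lists as a whole moved less evenly than these leading genes. Of 16 acute-phase and inflammation genes tested, 7 fell and none rose (Saa3, Socs3, Tnfaip6, Ccl2, Cxcl5, Cxcl1 and Il33), with a median difference of -0.255 against 0.027 over all genes. Every one of the 16 had its highest 4-week value in DMM 4 weeks replicate 2, and without that pool 3 of the 16 were called. The count was 4 without DMM 8 weeks replicate 1 or replicate 3. Of 15 chemokines and their receptors, 3 fell and 12 did not pass the test. Ccl8, which attracts monocytes, had 8.57, 8.91 and 8.73 in DMM 8 weeks pools and 9.74, 10.44 and 10.17 in DMM 4 weeks pools (-1.38 ± 0.31, adjusted p = 0.00685), with no overlap, and kept its call with any pool left out. Cxcl14 (-1.12) and the scavenging receptor Ackr3 (-0.76) lost theirs without DMM 4 weeks replicate 2 (-0.63, adjusted p = 0.112, and -0.55, adjusted p = 0.124), and also without DMM 8 weeks replicate 2 (Cxcl14, adjusted p = 0.0506) or replicate 3 (Ackr3, adjusted p = 0.0586). Without DMM 4 weeks replicate 2 the chemokine count was 1 of 15, and without DMM 4 weeks replicate 1 it was 5.

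Complement genes were lower in part, while most macrophage genes tested did not pass. Of 12 complement genes tested, 6 fell (C1s1, C1ra, Cfb, C3ar1, Serping1 and C2) and none rose, with a median of -0.281, and without DMM 4 weeks replicate 2 the count was 3. C1s1, a protease of the first complement complex, had 9.67, 9.70 and 9.53 in DMM 8 weeks pools and 10.50, 11.35 and 10.78 in DMM 4 weeks pools (-1.24 ± 0.22, adjusted p = 0.00155), and its groups were far apart. C1qa, the recognition subunit made by macrophages, had 12.22, 12.16 and 12.17 in DMM 8 weeks pools and 12.26, 12.42 and 12.31 in DMM 4 weeks pools, a difference of -0.15 ± 0.10 that did not pass the test (adjusted p = 0.303). Of 17 macrophage genes, 2 fell (Ms4a7 and Cd14), a share near the 12.6% of all genes called lower, and the median was -0.057. Both of these calls were lost when DMM 4 weeks replicate 2 (adjusted p = 0.156 and 0.323), DMM 4 weeks replicate 3 or any pool at 8 weeks was left out. Csf1r, the growth factor receptor that defines the macrophage lineage, had a difference of -0.13 ± 0.08 (adjusted p = 0.259), and Lyz2, lysozyme of myeloid cells, one of -0.06 ± 0.10 (adjusted p = 0.712).

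**Figure D1:**
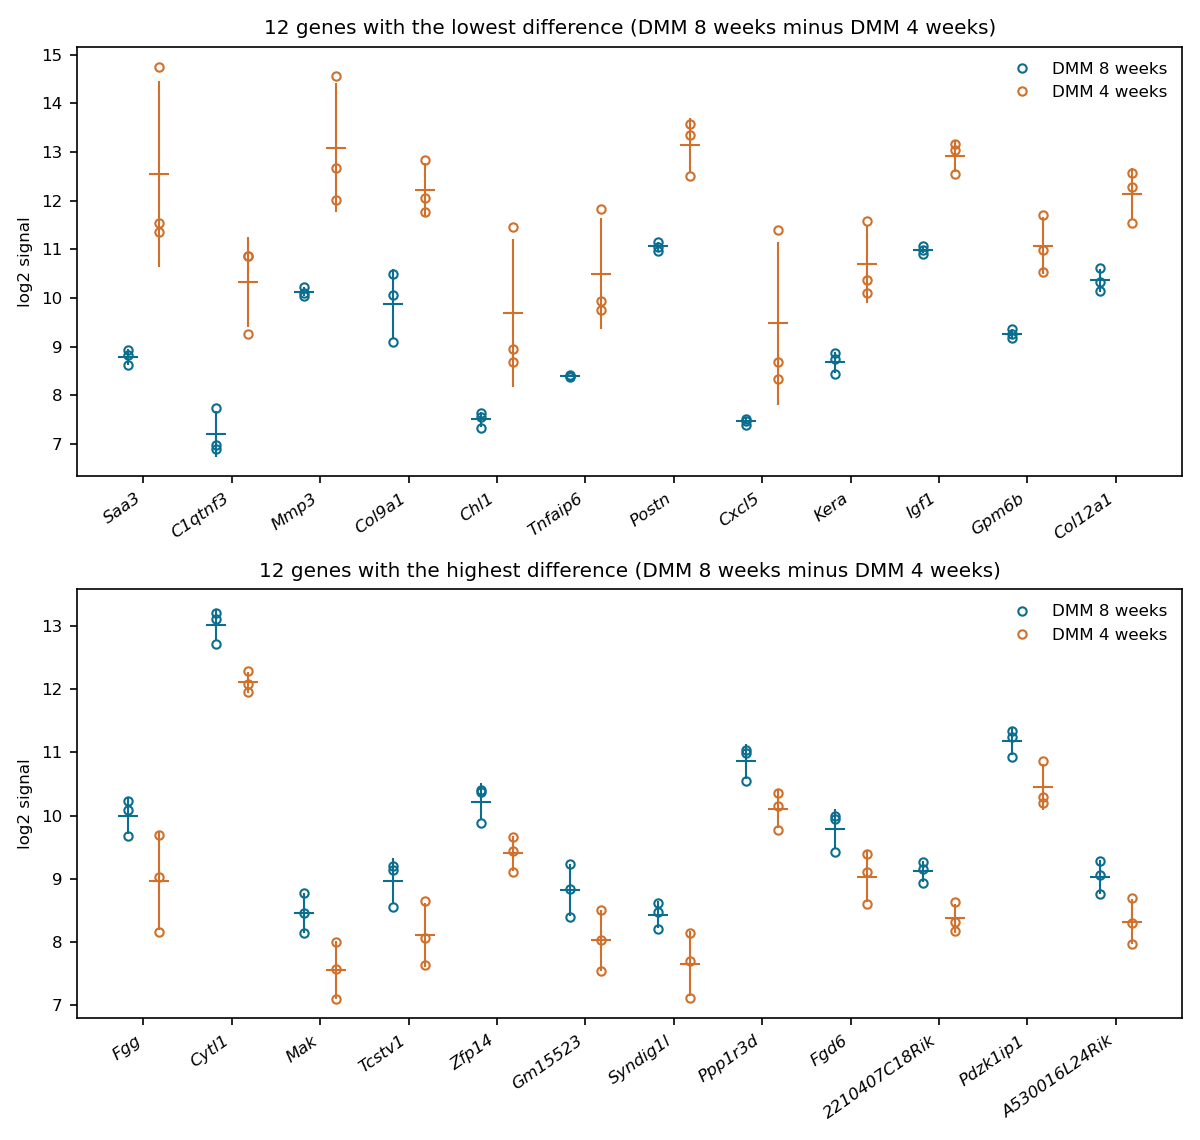
Log2 signal (vertical axis) of the 12 genes with the lowest (upper panel) and the 12 with the highest (lower panel) differences among called genes, 1 point per pool, with DMM 8 weeks left of DMM 4 weeks for each gene, a bar at each mean and a line of 1 SD to either side. The 8-week points of Saa3, Mmp3 and Tnfaip6 lie close together, while the 4-week points are spread, with replicate 2 uppermost, and the pools of Fgg overlap.

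Collagen genes were lower at 8 weeks almost without exception. Of 20 fibrillar and other collagen genes tested, 18 fell and none rose, with a median difference of -1.13 against 0.027 over all genes, and leaving out any single pool gave 17 to 19. Col12a1, a collagen that bridges fibrils in capsule and ligament, had signals of 10.14, 10.34 and 10.61 in DMM 8 weeks pools, against 11.54, 12.29 and 12.58 in DMM 4 weeks pools. The groups were separated by almost 1 log2 unit, and the difference was -1.77 ± 0.24 (3.42-fold lower, adjusted p = 0.00119). The other tested probe set of Col12a1 was called lower too, by less (-0.77, adjusted p = 0.0102). Col8a2, a short-chain collagen of basement membranes, had 9.08, 9.38 and 9.27 in DMM 8 weeks pools, against 10.28, 11.37 and 10.87 in DMM 4 weeks pools (-1.60 ± 0.25, adjusted p = 0.00122), again without overlap. Col6a2, of the microfibrils around cells, was 2.86-fold lower (-1.52 ± 0.28) and Col5a2, which sets the width of collagen fibrils, 2.2-fold lower (-1.14 ± 0.19). Col3a1, the collagen of young fibrous tissue, had 14.33, 14.51 and 14.30 in DMM 8 weeks pools and 14.91, 15.41 and 15.34 in DMM 4 weeks pools. The difference at this probe set was -0.84 ± 0.20 (adjusted p = 0.00784), and missed the test without DMM 4 weeks replicate 2 (-0.74, adjusted p = 0.0531), while the other probe set of Col3a1 gave a larger difference of -1.97 (adjusted p = 0.00132). The 2 listed collagens that did not pass at their brightest probe set were Col27a1 (-0.43 ± 0.16, adjusted p = 0.0618), whose other probe set was called lower (-0.42, adjusted p = 0.0489), and Col4a5 (-0.15 ± 0.10, adjusted p = 0.306).

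The enzymes and chaperones that fold and cross-link collagen followed. Of 17 genes of collagen processing, 13 fell and none rose, with a median of -0.73, and no single pool moved that count beyond 11 to 15. Lox, the lysyl oxidase that starts the cross-links between fibrils, had 10.85, 10.61 and 10.88 in DMM 8 weeks pools, against 11.57, 12.67 and 12.42 in DMM 4 weeks pools (-1.44 ± 0.24, 2.72-fold lower, adjusted p = 0.00133). The 8-week pools of Lox lay close to one another and below all of the 4-week pools. Loxl1, a related oxidase of elastic fibres (-1.21 ± 0.20), Pcolce, which speeds the trimming of procollagen (-1.18 ± 0.24), Serpinh1, the collagen chaperone (-1.12 ± 0.26), and P4ha2, a prolyl hydroxylase (-1.04 ± 0.21), all fell and kept their calls with any pool left out. Pcolce2 ran the other way without passing the test (0.34 ± 0.17, adjusted p = 0.151). The wider secretory pathway changed less. Of 31 genes of secretion and endoplasmic reticulum stress, 10 fell, 1 rose and the median was -0.216. Kdelr3 (-1.09 ± 0.20) and Sec24d (-0.92 ± 0.18), which carry cargo such as procollagen between the reticulum and the Golgi, fell, while Hspa5, the general chaperone, had a difference of -0.12 ± 0.11 (adjusted p = 0.476). The 1 gene that rose, Ddit3, did so by 0.26 ± 0.09 (adjusted p = 0.0465) and lost its call with each of DMM 4 weeks replicates 2 and 3 and DMM 8 weeks replicates 1, 2 and 3 left out (adjusted p up to 0.175). The count of 10 was 4 without DMM 4 weeks replicate 2, 5 without DMM 4 weeks replicate 3 and 6 without DMM 8 weeks replicate 1.

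Proteoglycans and glycoproteins of the fibrous matrix showed the same direction. Of 9 small leucine-rich proteoglycans, 5 fell (Kera, Bgn, Lum, Fmod and Aspn), none rose and the median was -0.738. Kera, keratocan, had 8.43, 8.86 and 8.74 in DMM 8 weeks pools and 10.11, 10.36 and 11.59 in DMM 4 weeks pools, and so was 4.03-fold lower (-2.01 ± 0.39, adjusted p = 0.00282) with no overlap. Dcn, decorin, was far brighter with 14.67, 14.75 and 14.62 in DMM 8 weeks pools and 14.76, 15.11 and 14.96 in DMM 4 weeks pools, and its difference of -0.27 ± 0.12 did not pass the test (adjusted p = 0.128). Of 30 matrix glycoproteins, 21 fell, none rose and the median was -0.766, but without DMM 4 weeks replicate 2 the count was 11. Postn, periostin, a protein that fibroblasts secrete in healing tissue, had 11.06, 10.97 and 11.16 in DMM 8 weeks pools, against 12.50, 13.34 and 13.57 in DMM 4 weeks pools (-2.08 ± 0.29, 4.22-fold lower, adjusted p = 0.00119). Its lowest 4-week pool stood more than 1 log2 unit above its highest 8-week pool. Cthrc1, secreted by activated fibroblasts, was 3.34-fold lower (-1.74 ± 0.35). Sparc, which binds collagen and mineral, fell by 0.38 on the log2 scale at its brightest probe set (adjusted p = 0.0131), a call lost without DMM 4 weeks replicate 2 (adjusted p = 0.0517) or replicate 3 (adjusted p = 0.0787), and Fn1, fibronectin, did not pass at its brightest probe set (-0.42 ± 0.16, adjusted p = 0.062) though its other probe set was called lower. Of 13 myofibroblast genes, 8 fell, none rose and the median was -0.777, with 5 called without DMM 4 weeks replicate 2. Postn and Cthrc1 were counted both here and among the matrix glycoproteins.

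**Figure D2:**
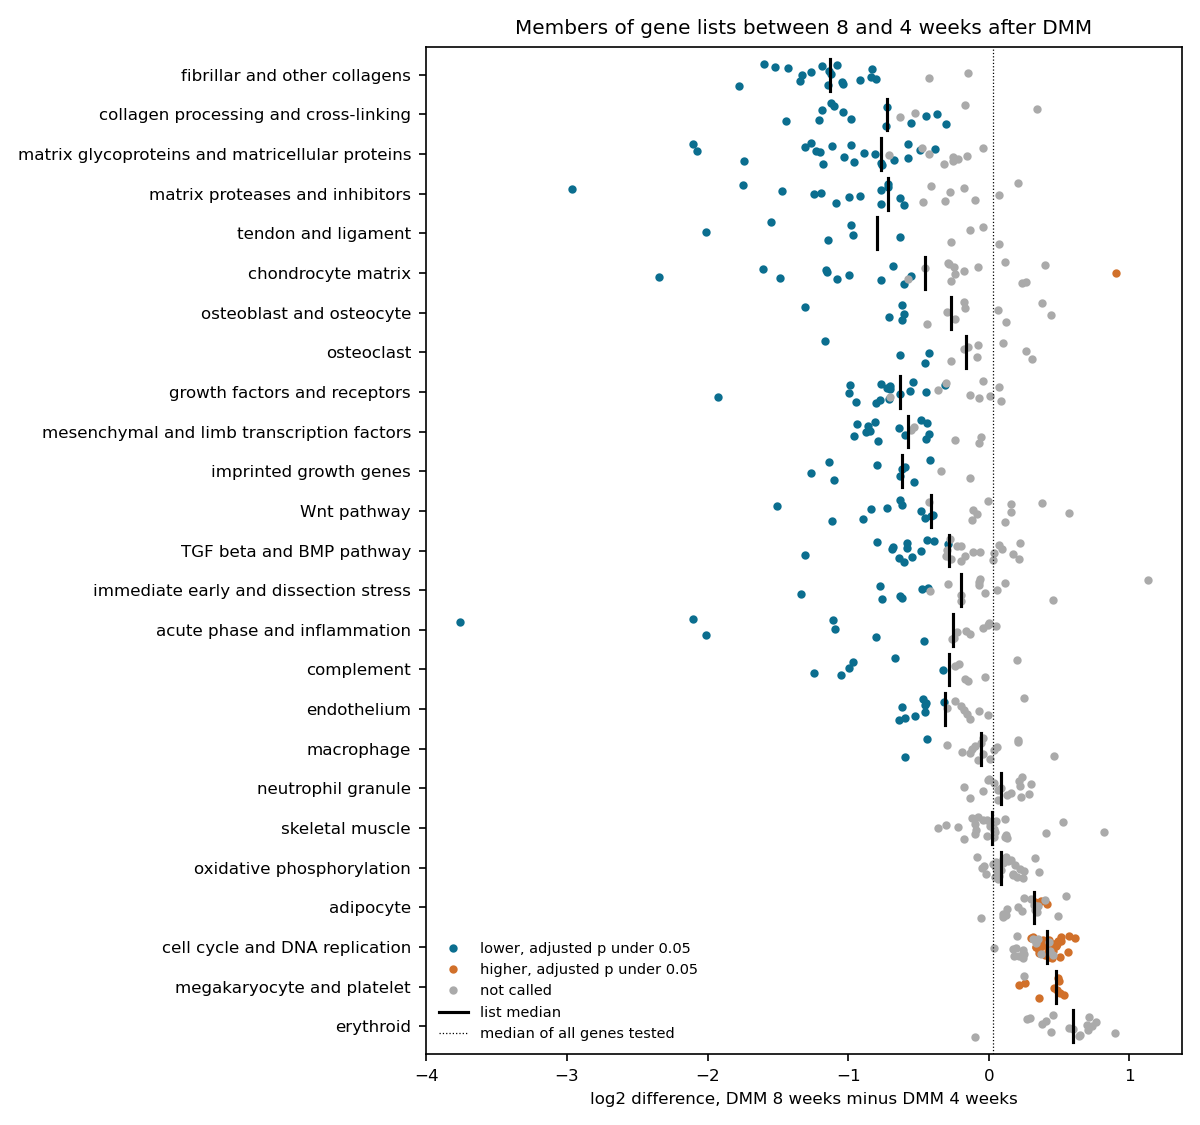
Log2 difference, DMM 8 weeks minus DMM 4 weeks, of every tested member (points) of the gene lists named on the vertical axis, in blue where called lower, orange where called higher and grey where not called, with a bar at each list's median and a dotted line at the median of all genes tested. Collagens, collagen processing and matrix glycoproteins lie below 0 with few exceptions, cell cycle and megakaryocyte genes lie above 0, and macrophage and skeletal muscle genes straddle 0.

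The proteases that remodel this matrix fell with it. Of 22 matrix proteases and inhibitors tested, 14 fell, none rose and the median was -0.717, and leaving out single pools gave 10 to 15. Mmp3, stromelysin, which cuts proteoglycans and activates other proteases, had 10.11, 10.04 and 10.23 in DMM 8 weeks pools, against 12.02, 14.57 and 12.68 in DMM 4 weeks pools. The 8-week pools lay together more than 1 log2 unit below the lowest 4-week pool, and the difference was -2.96 ± 0.52 (7.79-fold lower, adjusted p = 0.00156), or -2.22 without DMM 4 weeks replicate 2. Mmp13, the collagenase of cartilage and bone, had 12.64, 12.57 and 12.87 in DMM 8 weeks pools, against 13.68, 14.03 and 14.11 in DMM 4 weeks pools (-1.25 ± 0.18, adjusted p = 0.00122), so its groups were apart although it stayed bright at 8 weeks. Timp1, an inhibitor of these enzymes, had 10.52, 10.70 and 10.54 in DMM 8 weeks pools and 11.50, 13.31 and 12.19 in DMM 4 weeks pools (-1.75 ± 0.40, adjusted p = 0.00719), and missed the test without DMM 4 weeks replicate 2 (-1.26, adjusted p = 0.0631). Mmp2, gelatinase A, was 2.77-fold lower (-1.47 ± 0.28), and Htra1, a serine protease, 1.99-fold lower (adjusted p = 0.0105) with its call lost without DMM 4 weeks replicate 2 (adjusted p = 0.0754). Adamts5, the main aggrecan-cleaving enzyme of mouse cartilage, had 10.12, 10.20 and 10.24 in DMM 8 weeks pools and 10.24, 11.25 and 10.48 in DMM 4 weeks pools, a difference of -0.47 ± 0.20 that did not pass (adjusted p = 0.0973).

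The promoters of Mmp3, Mmp13 and Tnfaip6 are shown because they are among the genes at least 2-fold lower whose window carried the site TGACTCA. This is the binding sequence of AP-1, the dimer of Fos and Jun proteins. The 250 bases before each RefSeq start site were searched on both strands, and the 160 bases next to the start are printed 5′ to 3′ on the gene's strand, with the site in capitals (TGACTCA or its reverse complement). The positions are chr9:7445662-7445821 (plus strand) for Mmp3, chr9:7272354-7272513 (plus strand) for Mmp13 and chr2:52037953-52038112 (plus strand) for Tnfaip6, in build GRCm38.p6.
Mmp3: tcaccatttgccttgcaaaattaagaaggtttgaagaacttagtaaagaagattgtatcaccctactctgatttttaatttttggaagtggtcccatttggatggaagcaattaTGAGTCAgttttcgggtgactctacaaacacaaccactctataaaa
Mmp13: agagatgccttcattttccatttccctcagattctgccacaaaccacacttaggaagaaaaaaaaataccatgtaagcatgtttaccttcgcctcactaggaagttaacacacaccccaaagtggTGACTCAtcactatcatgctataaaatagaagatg
Tnfaip6: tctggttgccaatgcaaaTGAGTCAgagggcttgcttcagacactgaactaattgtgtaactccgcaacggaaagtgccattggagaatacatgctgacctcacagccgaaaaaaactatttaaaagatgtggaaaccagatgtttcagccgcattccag
The first base of the site lay 46 bases before the start in Mmp3, 35 in Mmp13 and 142 in Tnfaip6. The site was in 4.46% of 32851 promoter windows of this length and in 4.26% of the 9294 tested genes that had one, against 8 of 97 (8.25%) of the genes at least 2-fold lower at 8 weeks that had one. Of the called genes with a window, it was in 2 of 11 matrix protease and inhibitor genes and 1 of 14 collagens. A match of letters is a description of the sequence and not of binding, and a part of AP-1 in these changes was not tested.

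Immediate early genes, among them those of AP-1, were partly lower at 8 weeks. These genes respond within minutes to injury, growth factors and also to dissection of the tissue. Of 19 tested, 7 fell (Junb, Jun, Fos, Ccn1, Ier3, Dusp1 and Egr1), none rose and the median was -0.202, and without DMM 4 weeks replicate 2 the count was 4. Fos averaged 9.82 ± 0.20 in DMM 8 weeks pools, against 11.15 ± 0.73 (SD, 3 pools each) with single values of 10.53, 10.97 and 11.95 in DMM 4 weeks pools (-1.33 ± 0.29, 2.52-fold lower, adjusted p = 0.00557), with no overlap and its highest value in DMM 4 weeks replicate 3. Junb fell by 0.78 on the log2 scale (adjusted p = 0.00333). Any part of tissue handling in these values was not tested.

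Growth factors, their receptors and the transcription factors of limb mesenchyme were lower as well. Of 25 growth factors and receptors tested, 16 fell, none rose and the median was -0.631, with 9 called without DMM 4 weeks replicate 2. Igf1, a growth factor for chondrocytes, fibroblasts and bone cells, had 10.99, 11.06 and 10.91 in DMM 8 weeks pools, against 12.54, 13.16 and 13.04 in DMM 4 weeks pools. The groups were apart by more than 1 log2 unit, and the difference was -1.93 ± 0.27 (3.8-fold lower, adjusted p = 0.00119). Pdgfra, the platelet-derived growth factor receptor of mesenchymal cells, was 1.99-fold lower (-0.99 ± 0.18), and the binding protein Igfbp3 2-fold lower (adjusted p = 0.00343). Of 18 mesenchymal transcription factors, 13 fell, none rose and the median was -0.577, a count of 11 to 15 with single pools left out. Hoxa10, a patterning gene of the hind limb, had 8.40, 8.27 and 8.39 in DMM 8 weeks pools and 9.14, 9.40 and 9.40 in DMM 4 weeks pools (-0.96 ± 0.14, adjusted p = 0.00119), without overlap. Tbx18 (-0.94 ± 0.21), Meox2 (-0.87 ± 0.17) and Tbx15 (-0.86 ± 0.14) fell to a similar degree. Imprinted growth genes, which are active in fetal and regenerating tissue, fell in 9 of 11 cases with a median of -0.619. Among them were Meg3 (-1.26 ± 0.24), Rian (-1.14 ± 0.26, with 8-week signals under the level of the signal filter) and Grb10 (-1.10 ± 0.18), and the count was 5 without DMM 4 weeks replicate 2 and 4 without replicate 3. Of the 8 probe sets of Meg3 that were tested, 6 were called lower.

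In the transforming growth factor beta and bone morphogenetic protein pathway, 13 of 30 genes fell, none rose and the median was -0.284. Fstl1, a secreted glycoprotein that binds ligands of this family, was 2.47-fold lower (-1.31 ± 0.21), Tgfb3, a ligand, 1.73-fold (-0.79 ± 0.13) and Bmpr1a, a receptor, 1.56-fold (-0.64 ± 0.11). The pathway's count was 7 or 8 without any one of DMM 4 weeks replicates 2 and 3 and DMM 8 weeks replicates 1, 2 and 3. In the Wnt pathway 11 of 21 genes fell, none rose and the median was -0.414, with 7 called without DMM 4 weeks replicate 2. Sfrp2, a secreted modulator of Wnt ligands, had 9.59, 9.59 and 9.53 in DMM 8 weeks pools, against 10.79, 10.82 and 11.63 in DMM 4 weeks pools (-1.51 ± 0.22, 2.85-fold lower, adjusted p = 0.00122). Its 8-week pools were nearly equal and more than 1 log2 unit below the lowest 4-week pool. The receptor Fzd1 (-0.89 ± 0.17) and Sfrp4 (-0.62 ± 0.12) also fell. Sost, the osteocyte inhibitor of Wnt signalling, had 10.76, 10.94 and 10.48 in DMM 8 weeks pools and 10.24, 10.54 and 10.25 in DMM 4 weeks pools, and its positive difference of 0.38 ± 0.18 did not pass (adjusted p = 0.127).

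Genes of cartilage matrix were split. Of 25 tested, 11 fell, 1 rose and 13 did not pass, with a median of -0.455, and without DMM 4 weeks replicate 3 the count that fell was 6. Col9a1, a collagen on the surface of cartilage fibrils, had 9.09, 10.06 and 10.49 in DMM 8 weeks pools, against 12.06, 11.77 and 12.84 in DMM 4 weeks pools (-2.34 ± 0.51, 5.08-fold lower, adjusted p = 0.00526). Both groups were spread, yet every 8-week pool lay more than 1 log2 unit below the lowest 4-week pool. Col2a1, the main cartilage collagen, had 11.62, 12.36 and 12.32 in DMM 8 weeks pools and 13.54, 13.17 and 14.04 in DMM 4 weeks pools (-1.49 ± 0.33, adjusted p = 0.00526), and Matn3, a cartilage matrilin, was 3.05-fold lower (-1.61 ± 0.33). Acan, aggrecan, fell by 0.60 on the log2 scale (adjusted p = 0.0332), and lost the call without DMM 4 weeks replicate 2 (adjusted p = 0.0562) or 3 (-0.43, adjusted p = 0.175) and without DMM 8 weeks replicate 1 (adjusted p = 0.115) or 3 (adjusted p = 0.107). The bright genes Comp (-0.24 ± 0.17, adjusted p = 0.314) and Prg4 (-0.25 ± 0.16, adjusted p = 0.274) did not pass. Cytl1, a secreted protein expressed in cartilage, rose. It had 13.21, 13.11 and 12.72 in DMM 8 weeks pools, against 12.28, 12.08 and 11.96 in DMM 4 weeks pools (0.90 ± 0.17, 1.87-fold higher, adjusted p = 0.00253), with no overlap and a call that held with any pool left out.

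Hypertrophic cartilage and bone changed less. Of 7 genes of hypertrophic chondrocytes, 2 fell, with a median of -0.271. Col10a1, the collagen of hypertrophic cartilage, had 8.82, 9.32 and 9.15 in DMM 8 weeks pools, against 10.16, 9.93 and 10.68 in DMM 4 weeks pools (-1.16 ± 0.34, adjusted p = 0.0245), without overlap. The other, Pth1r, a parathyroid hormone receptor, fell by 0.46 on the log2 scale (adjusted p = 0.032), and both calls were lost without DMM 4 weeks replicate 3 (adjusted p = 0.122 and 0.139), DMM 8 weeks replicate 1 (adjusted p = 0.0956 and 0.0826) or DMM 8 weeks replicate 3 (adjusted p = 0.0522 and 0.0961). Pth1r was not called without DMM 4 weeks replicate 2 either (adjusted p = 0.0537). Of 14 osteoblast and osteocyte genes, 5 fell (Col1a1, Pdpn, Phex, Ibsp and Dmp1), none rose and the median was -0.271, with 3 called without DMM 4 weeks replicate 3. Col1a1, the chief collagen of bone, had 13.68, 13.60 and 13.51 in DMM 8 weeks pools and 14.13, 14.09 and 14.43 in DMM 4 weeks pools (-0.62 ± 0.12, adjusted p = 0.00233), without overlap. Its partner chain Col1a2, which like Col1a1 was listed here and not with the collagens above, did not pass at its brightest probe set (-0.24 ± 0.10, adjusted p = 0.0876), but 2 of its 3 probe sets were called lower, down to -1.14 (adjusted p = 0.00559). Phex, an osteocyte peptidase of phosphate control, fell by 0.62 on the log2 scale (adjusted p = 0.00636). Of 12 osteoclast genes 4 fell (Tnfsf11, Ctsk, Dcstamp and Acp5), with a median of -0.165 and with 2 called without DMM 4 weeks replicate 3 or DMM 8 weeks replicate 2. Ctsk was also counted among the matrix proteases. Ctsk, the osteoclast cathepsin, had 12.64, 12.64 and 12.73 in DMM 8 weeks pools and 13.37, 13.26 and 13.27 in DMM 4 weeks pools (-0.63 ± 0.16, adjusted p = 0.0126), with no overlap and little variation within either group. Tnfsf11, the cytokine RANKL that drives osteoclast formation, was 2.24-fold lower (-1.16 ± 0.26, adjusted p = 0.00565), with its call lost without DMM 4 weeks replicate 2 (adjusted p = 0.0519).

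Tendon genes and the vessel wall were the other structural groups with several calls. Of 10 tendon and ligament genes 6 fell (Kera, Fmod, Tnmd, Thbs4, Col14a1 and Egr1), with a median of -0.799, and without DMM 4 weeks replicate 2 the count was 4. All but Tnmd of these were also counted above among proteoglycans, matrix glycoproteins, collagens or immediate early genes. Tnmd, a membrane protein of mature tenocytes, had 9.26, 9.79 and 9.27 in DMM 8 weeks pools and 10.54, 10.86 and 11.57 in DMM 4 weeks pools (-1.55 ± 0.34, 2.92-fold lower, adjusted p = 0.00513), without overlap, whereas Scx did not pass (-0.04 ± 0.10, adjusted p = 0.816). Of 18 endothelial genes 9 fell and none rose, with a median of -0.31, and the count was 5 without DMM 4 weeks replicate 3 or DMM 8 weeks replicate 3. Cdh5, the junction protein of endothelium, had 9.89, 9.80 and 9.82 in DMM 8 weeks pools and 10.17, 10.55 and 10.71 in DMM 4 weeks pools (-0.64 ± 0.12, adjusted p = 0.00204), again apart. Egfl7, a secreted endothelial factor, fell by 0.59 on the log2 scale (adjusted p = 0.00122). Redox genes went both ways, with 6 of 22 lower and 2 higher. Gpx7, a peroxidase of the endoplasmic reticulum, was 2.24-fold lower (-1.17 ± 0.20), while Gclm, of glutathione synthesis, was higher by 0.55 ± 0.17 (adjusted p = 0.0307) and lost its call without DMM 4 weeks replicate 2 (adjusted p = 0.147) or replicate 3 (adjusted p = 0.0893), or DMM 8 weeks replicate 1 (adjusted p = 0.0885) or replicate 2 (adjusted p = 0.0966). The redox counts were 2 lower without DMM 4 weeks replicate 2 or DMM 8 weeks replicate 1, 3 lower without DMM 4 weeks replicate 3 or DMM 8 weeks replicate 3, and at most 1 higher without any of DMM 4 weeks replicates 2 and 3 or the 8-week pools.

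Genes of cell division were the main group that was higher at 8 weeks. All 48 tested cell cycle and DNA replication genes had positive differences, 32 of them passed the test and none was called lower, with a median of 0.411 against 0.027 over all genes. Ube2c, which targets mitotic proteins for destruction, had 12.92, 12.75 and 12.61 in DMM 8 weeks pools, against 12.45, 12.00 and 12.12 in DMM 4 weeks pools (0.57 ± 0.14, 1.49-fold higher, adjusted p = 0.00942). The groups did not overlap, though the gap between the lowest 8-week and the highest 4-week pool was small. Cdk1, the kinase of mitotic entry, had 12.23, 12.17 and 12.09 in DMM 8 weeks pools and 11.90, 11.63 and 11.66 in DMM 4 weeks pools (0.44 ± 0.11, adjusted p = 0.0128). Pcna, the clamp of DNA polymerase, was 1.34-fold higher (0.42 ± 0.13, adjusted p = 0.0304) and Mki67, the Ki-67 antigen of dividing cells, 1.31-fold higher (0.39 ± 0.13, adjusted p = 0.0434). These calls were fragile. Without DMM 4 weeks replicate 2 the count was 1 of 48 with a median of 0.341, and it was 3 without DMM 4 weeks replicate 3, 5 without DMM 8 weeks replicate 1 and 13 without DMM 8 weeks replicate 2, against 40 without DMM 4 weeks replicate 1. Ube2c was not called without DMM 4 weeks replicate 2 (adjusted p = 0.0676) or DMM 8 weeks replicate 1 (adjusted p = 0.051), Cdk1 without these 2 pools (adjusted p = 0.074 and 0.0547) or DMM 4 weeks replicate 3 (adjusted p = 0.065), and Pcna and Mki67 without any of these 3 pools or DMM 8 weeks replicate 2 (adjusted p = 0.0898 to 0.206).

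The promoters of Cdk1 and Ube2c are shown as examples of this group, since both carry the 2 elements that cell cycle promoters are known for: the CCAAT box (CCAAT), bound by nuclear factor Y, and the cell cycle genes homology region (TTTGAA), bound by the DREAM complex that shuts such genes off in resting cells. Both elements are in capitals on either strand (ATTGG and TTCAAA are their reverse complements). The 160 bases before the start are chr10:69352913-69353072 (minus strand) for Cdk1 and chr2:164769769-164769928 (plus strand) for Ube2c, from RefSeq in build GRCm38.p6.
Cdk1: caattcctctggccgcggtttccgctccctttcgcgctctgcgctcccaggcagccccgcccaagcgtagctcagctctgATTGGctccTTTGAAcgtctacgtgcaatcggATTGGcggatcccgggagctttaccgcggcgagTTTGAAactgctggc
Ube2c: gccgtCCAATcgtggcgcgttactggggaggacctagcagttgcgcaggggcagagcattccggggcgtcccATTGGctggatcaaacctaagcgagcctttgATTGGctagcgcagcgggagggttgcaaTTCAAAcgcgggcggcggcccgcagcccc
Within 250 bases before the start, a CCAAT box was in 22 of the 25 called cell cycle genes that had a promoter window (88%), in 39.7% of the tested genes and in 33.8% of all windows. The homology region was in 9 of the 25 (36%), in 12.9% of the tested genes and in 16% of all windows. Cell cycle genes share these elements in any tissue, so the counts describe the list and not the comparison.

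Platelet genes were also higher at 8 weeks. Of 10 megakaryocyte and platelet genes tested, 9 rose and none was called lower, with a median of 0.475, and the pools of all 10 were apart. Gp1bb, a subunit of the platelet receptor for von Willebrand factor, had 11.51, 11.42 and 11.21 in DMM 8 weeks pools, against 11.04, 10.89 and 10.62 in DMM 4 weeks pools (0.53 ± 0.12, 1.45-fold higher, adjusted p = 0.00814), a call lost without DMM 4 weeks replicate 3 (adjusted p = 0.0632). Treml1, a receptor of platelet granules, had 10.68, 10.60 and 10.70 in DMM 8 weeks pools and 10.35, 10.17 and 9.95 in DMM 4 weeks pools (0.50 ± 0.10, adjusted p = 0.00344), and held with any pool left out. Pf4, platelet factor 4, was higher by 0.22 ± 0.05 (adjusted p = 0.0104) and lost its call without DMM 4 weeks replicate 3 (adjusted p = 0.0748) or DMM 8 weeks replicate 1 (adjusted p = 0.0562). Vwf, which endothelium makes as well, did not pass (0.25 ± 0.10, adjusted p = 0.0826). The count of 9 was 1 without DMM 4 weeks replicate 3, 4 without DMM 4 weeks replicate 2 and 3 without DMM 8 weeks replicate 1.

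Other blood lineages held few calls. None of the 17 erythroid genes was called, although 16 were above 0 and the median was 0.601. Car1, carbonic anhydrase of red cells, had 12.87, 12.74 and 12.38 in DMM 8 weeks pools and 12.16, 11.28 and 11.86 in DMM 4 weeks pools (0.90 ± 0.34, adjusted p = 0.0725). Without DMM 4 weeks replicate 1, the pool with the highest 4-week value in all 17 erythroid genes, 7 were called higher. Beside 6.7% of all genes called higher, the B, T and NK cell counts were near that background. Of 13 B cell genes 1 rose (Cd37, 0.34 ± 0.09, adjusted p = 0.0127), of 11 T and NK cell genes 1 rose (Cd4, 0.23 ± 0.07, adjusted p = 0.0366) and of 8 mast cell and eosinophil genes 2 rose (Kit, 0.34 ± 0.09, and Ms4a2, 0.49 ± 0.14). The calls of Cd37, Cd4, Kit and Ms4a2 were all lost without DMM 4 weeks replicate 2 (adjusted p = 0.0681, 0.222, 0.0839 and 0.117) and each also without at least 2 of the other pools, and without DMM 4 weeks replicate 1 the mast cell count was 4. None of 17 neutrophil granule genes was called, and their median was 0.088. Of 9 plasma cell genes 2 were called lower (Sdc1 and Fkbp11) and none higher, while 5 were above 0 and the median was 0.172. Sdc1 was also counted among the matrix glycoproteins. Fkbp11 lost its call without DMM 4 weeks replicate 2 or 3 or any of the 8-week pools. Its other probe set had a difference of 0.17 (adjusted p = 0.0566). Irf8, a transcription factor of the myeloid and B lineages, rose, with 11.22, 11.18 and 11.30 in DMM 8 weeks pools, against 10.89, 10.79 and 10.68 in DMM 4 weeks pools (0.45 ± 0.08, adjusted p = 0.00151), a call that no single pool ended.

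None of 27 skeletal muscle genes and none of 31 oxidative phosphorylation genes was called, with medians of 0.020 and 0.087. The mean signal over the muscle list was 10.36, 10.77 and 11.19 in DMM 8 weeks pools and 11.08, 10.27 and 10.86 in DMM 4 weeks pools, so the groups overlapped. Fat cell genes were mostly above 0, with 3 of 19 called higher (Pparg, 0.37 ± 0.12, Pnpla2, 0.33 ± 0.11, and Plin4, 0.41 ± 0.14) and a median of 0.322. That count was 7 without DMM 4 weeks replicate 1, 0 without each of DMM 4 weeks replicates 2 and 3 and DMM 8 weeks replicates 1 and 2, and 1 without DMM 8 weeks replicate 3.

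Among single genes, the largest rises were modest and most were fragile. Fgg, the gamma chain of fibrinogen, was the 1 gene called at least 2-fold higher, with 10.09, 10.24 and 9.67 in DMM 8 weeks pools and 9.70, 8.16 and 9.03 in DMM 4 weeks pools (1.03 ± 0.34, 2.05-fold, adjusted p = 0.0428). The pools overlapped, since DMM 4 weeks replicate 1 lay above DMM 8 weeks replicate 3, and the difference was 0.64 (adjusted p = 0.262) without DMM 4 weeks replicate 2. Without DMM 4 weeks replicate 3 or any of the 8-week pools the adjusted p for Fgg was 0.05 to 0.131. After Fgg and Cytl1, the next highest called genes were Mak (0.90), Tcstv1 (0.85), Zfp14 (0.82), Gm15523 (0.79), Syndig1l (0.78), Ppp1r3d (0.76), Fgd6 (0.75), 2210407C18Rik (0.74), Pdzk1ip1 (0.73) and A530016L24Rik (0.71). The 2 tested probe sets of Fgd6 were called in opposite directions, the other one lower (-0.38, adjusted p = 0.00151), and their mean was 0.19. All 10 lost the call without DMM 4 weeks replicate 2 or 3, and all but 2210407C18Rik also without DMM 8 weeks replicate 1 or 2. By contrast, the gene with the lowest p of all, Kcne4, a regulatory subunit of potassium channels, had 8.12, 8.21 and 8.20 in DMM 8 weeks pools, against 8.93, 9.20 and 9.11 in DMM 4 weeks pools (-0.91 ± 0.10, adjusted p = 0.000223) and was called with every pool left out. C1qtnf3 (cartducin, a secreted protein of growing cartilage) had a difference of -3.13 ± 0.61 (adjusted p = 0.00281), with 6.98, 7.74 and 6.89 in DMM 8 weeks pools and 9.26, 10.86 and 10.87 in DMM 4 weeks pools. Chl1, a neural cell adhesion protein, had a difference of -2.19 ± 0.48 (adjusted p = 0.00556), and of -1.31 without DMM 4 weeks replicate 2 (adjusted p = 0.028). For both genes every 8-week signal was under the level of the signal filter (7.93) and was not tested against background, so no fold is given.

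The 3 pools at 4 weeks differed among themselves in which tissue genes they held most of. DMM 4 weeks replicate 2 had the highest value in all 16 acute-phase genes, in 25 of 31 secretory genes and in 15 of 17 neutrophil genes, and the lowest in 17 of 25 cartilage genes and 26 of 27 muscle genes. DMM 4 weeks replicate 3 had the highest value in 20 of 25 cartilage genes and 6 of 7 hypertrophic genes, and the lowest in all 10 platelet genes. DMM 4 weeks replicate 1 had the highest value in all 17 erythroid genes, 46 of 48 cell cycle genes and 9 of 10 platelet genes, and the lowest in 16 of 20 collagens, 25 of 30 matrix glycoproteins and 18 of 22 proteases. The mean signal over the 20 collagens was 10.33, 10.46 and 10.32 in DMM 8 weeks pools and 11.14, 11.61 and 11.66 in DMM 4 weeks pools, so that even the nearest pools did not overlap. The mean over the 48 cell cycle genes was 11.34, 11.29 and 11.20 in DMM 8 weeks pools and 11.07, 10.77 and 10.83 in DMM 4 weeks pools.

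Within the whole course after DMM surgery, mean levels of collagens and matrix proteases were above the time 0 level at 2 and 4 weeks. At 8 weeks they were near or below the time 0 level but above the sham 8 weeks pools, while cartilage genes lay below the time 0 level at every time. Collagen means of single pools were 10.32 to 10.46 in DMM 8 weeks, 10.49 to 10.78 at time 0 and 9.98 to 10.22 in sham 8 weeks. Those of the matrix proteases were 10.29 to 10.34, 10.23 to 10.54 and 10.09 to 10.25 in the same order. The mean over the 20 collagens was 10.61 ± 0.15 (SD) in unoperated joints, and after DMM it was 11.97 ± 0.09 (2 weeks), 11.47 ± 0.29 (4 weeks), 10.37 ± 0.08 (8 weeks) and 10.43 ± 0.20 (16 weeks). The 22 matrix proteases and inhibitors had means of 10.40 ± 0.16, 11.40 ± 0.03, 11.11 ± 0.26, 10.32 ± 0.03 and 10.34 ± 0.09 at these 5 times. Cartilage genes had means of 11.64 ± 0.10, 11.53 ± 0.13, 11.21 ± 0.22, 10.68 ± 0.12 and 10.52 ± 0.13 in the same order. Sham levels of collagens and cartilage genes were also lower at 8 weeks than at 2 weeks. Cartilage genes of sham joints had means of 11.50 ± 0.22 (2 weeks), 10.99 ± 0.13 (4 weeks), 10.95 ± 0.23 (8 weeks) and 10.23 ± 0.14 (16 weeks), and the collagens 11.29 ± 0.43, 10.43 ± 0.22, 10.14 ± 0.14 and 9.80 ± 0.18. In DMM joints, cell cycle genes were lowest at 2 weeks, with 11.17 ± 0.13, 10.53 ± 0.04, 10.89 ± 0.16, 11.27 ± 0.07 and 11.27 ± 0.10, and so were platelet genes, with 10.52 ± 0.01, 10.86 ± 0.17, 11.26 ± 0.07 and 11.45 ± 0.06 from 2 to 16 weeks. Both lists were also lowest at 2 weeks in sham joints. Cell cycle genes had 11.129, 10.826 and 10.556 in sham 2 weeks pools, against 11.153, 11.262 and 11.239 in sham 4 weeks pools. Platelet genes had 11.144, 10.863 and 10.652 in sham 2 weeks pools, against 11.275, 11.348 and 11.162 in sham 4 weeks pools. There were 3 pools at each time except DMM 2 weeks, which had 2, and all these levels are given as a description with no test.

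**Figure D3:**
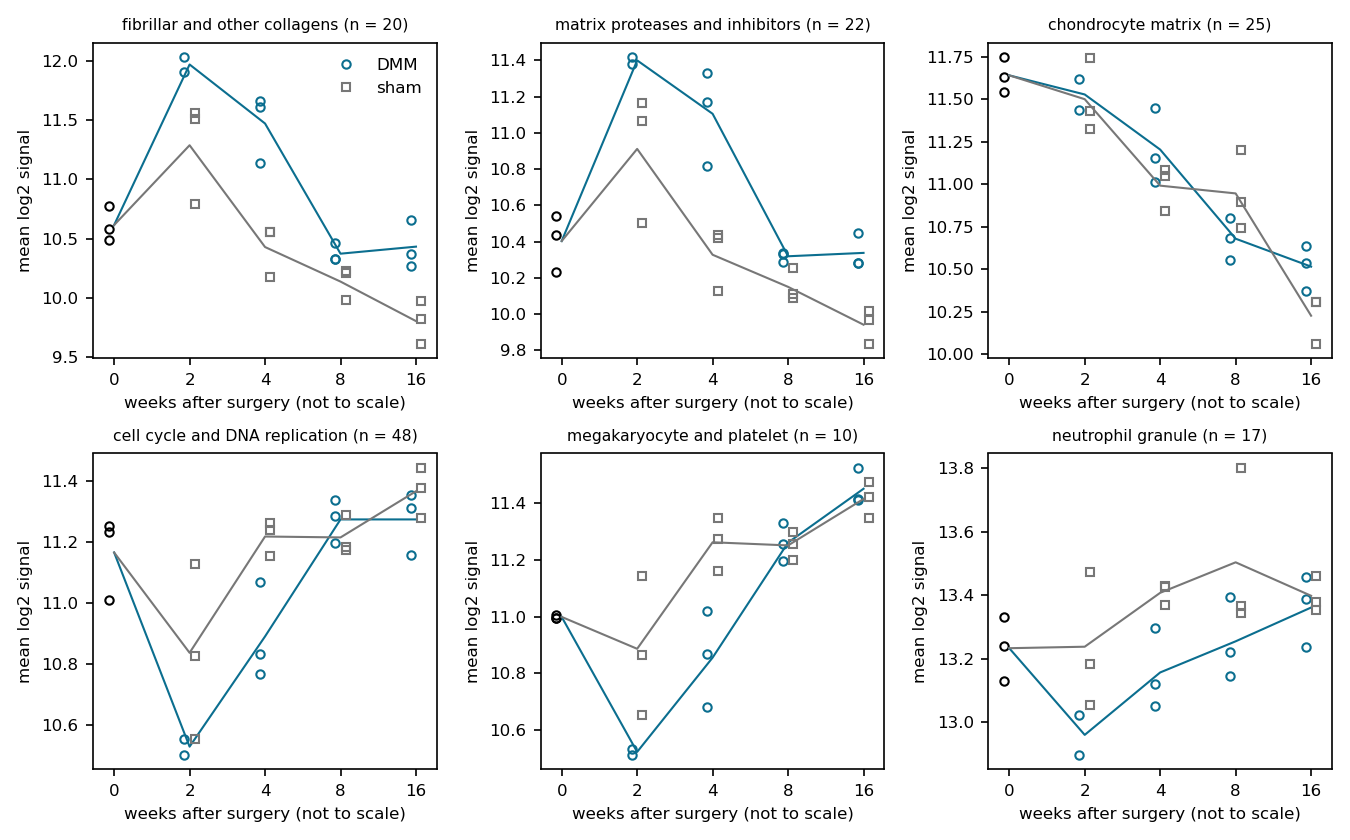
Mean log2 signal over the tested members of each list (vertical axis) against weeks after surgery (horizontal axis, not to scale), with 1 circle per DMM pool, 1 square per sham pool, black circles for time 0 and lines through the group means. In DMM joints collagens and proteases are highest at 2 weeks. At 8 weeks they are near or below the time 0 level and above the sham pools. Cell cycle and platelet genes are lowest at 2 weeks in both DMM and sham joints.

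Sham joints over the same weeks, set beside the DMM joints to ask whether the change was larger after destabilization, showed no calls. Of 22452 probe sets, 0 (0%) were called between sham 8 weeks and sham 4 weeks pools in limma, with 2484 at an unadjusted p under 0.05, against 7923 in DMM joints. The sham medians of the lists were in the same direction but smaller for collagens (-0.266) and matrix glycoproteins (-0.261), and near 0 for cartilage matrix (-0.034), mesenchymal transcription factors (0.021) and cell cycle genes (-0.014). They were close to the DMM medians for complement (-0.254 in sham joints, beside -0.281 in DMM joints), osteoblast and osteocyte genes (-0.217 and -0.271) and hypertrophic genes (-0.192 and -0.271). Postn had the values 10.57, 10.73 and 10.33 in sham 8 weeks pools and 11.89, 11.66 and 11.86 in sham 4 weeks pools, a difference of -1.26 ± 0.29 that did not pass in sham joints (adjusted p = 0.153). The pools of Postn were nonetheless apart in both surgeries.

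The change in DMM joints differed from that in sham joints, by a test of the difference itself, for 358 probe sets (44 with a higher and 314 with a lower value), or 23 genes higher (0.2% of 11502) and 164 lower (1.43%). Of these 187 genes, 172 were also called in DMM joints, all with the same sign, beside 2220 of all 11502 genes called there. The difference tested includes the DMM change itself, so this overlap and the shared sign were largely built in. By list, 3 of 17 collagen processing genes, 1 of 20 collagens, 1 of 22 matrix proteases and inhibitors, 0 of 30 matrix glycoproteins, 0 of 9 small leucine-rich proteoglycans and 0 of 25 cartilage genes were among them. The count was 5 of 18 for mesenchymal transcription factors, 0 of 48 for cell cycle genes and 0 of 10 for platelet genes. Lox was one of the 187 genes: its difference was -1.44 in DMM joints and -0.09 in sham joints, a gap of -1.35 ± 0.34 (adjusted p = 0.0485). Hif1a, the transcription factor of the response to low oxygen, had a difference of -1.03 in DMM joints and 0.11 in sham joints (a gap of -1.14, adjusted p = 0.0373). Others were Gpm6b, a membrane glycoprotein (-1.49), Spon1, an extracellular matrix spondin (-1.36), P4ha2 (-1.19), Tbx15 (-1.16), Col4a2, of basement membranes (-1.03), Clock, of the circadian clock (-0.98), Hoxa10 (-0.94), Peg3, an imprinted zinc finger protein (-0.80), Tgfb3 (-0.77), Adamts1, an aggrecan-cutting protease (-0.77), and Bmpr1a (-0.75). The other tested probe set of Spon1 was not called in DMM joints (-0.20, adjusted p = 0.131). Irf8 had a gap in the other direction (0.48, adjusted p = 0.0406). These calls depended on single pools: the 358 became 0 when any 1 of DMM 8 weeks replicates 1, 2 and 3, DMM 4 weeks replicates 2 and 3, sham 8 weeks replicates 2 and 3 and sham 4 weeks replicate 2 was left out, and 2837 or 3661 without DMM 4 weeks replicate 1 or sham 8 weeks replicate 1.

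**Figure D4:**
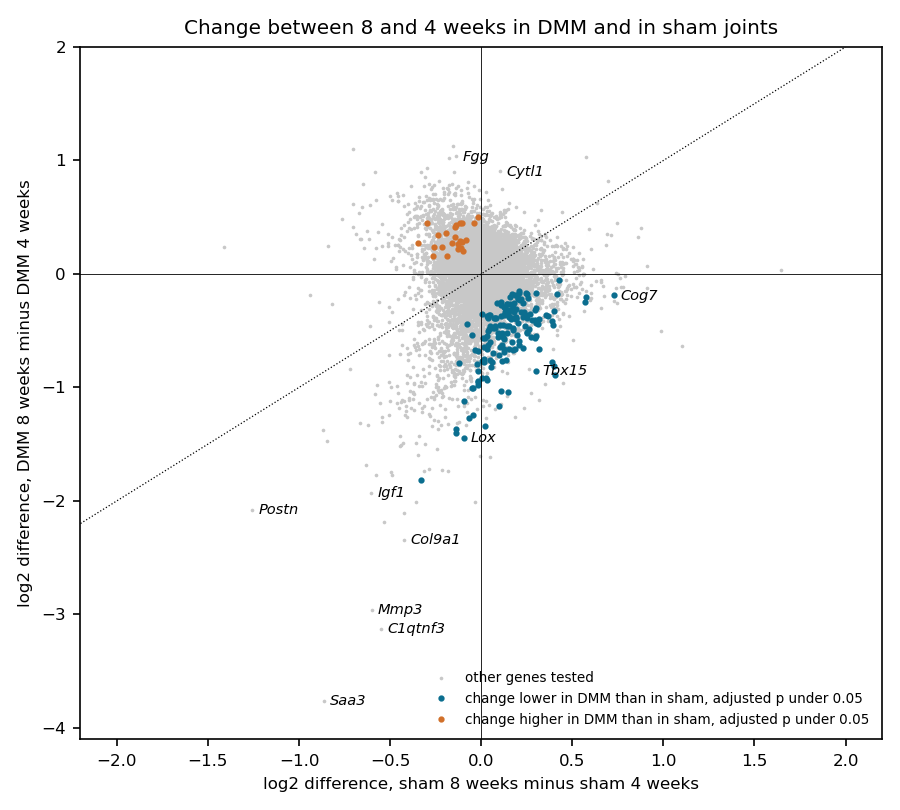
Log2 difference between 8 and 4 weeks in DMM joints (vertical axis) against that in sham joints (horizontal axis) for all genes tested, with the genes whose change differed between the surgeries in blue (164 lower in DMM) and orange (23 higher in DMM) and a dotted line of equal change. The blue points lie below the dotted line and below 0 in DMM joints, and Postn lies low on both axes.

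A set of genes taken from the authors' earlier work with this model had also been measured by real-time PCR in RNA of these pools. That earlier work used the same 8-week samples, so the set was not chosen independently of the DMM 8 weeks pools. On the arrays 14 of its 16 genes were tested, 13 fell and none rose, with a median of -1.11. Besides those described above these were Aspn, a proteoglycan (-1.04 ± 0.26), Il33, an alarm cytokine (-1.09 ± 0.32), and Dkk3, a Wnt modulator (-1.12 ± 0.37, adjusted p = 0.043), whose pools overlapped because DMM 4 weeks replicate 1 (9.17) lay below DMM 8 weeks replicate 2 (9.26). Adamts5 did not pass, Ccr7 lay at or below the signal filter and Ccl21a had no probe set of its own. Without DMM 4 weeks replicate 2 the count was 6 and without DMM 8 weeks replicate 3 it was 8. Aspn, Il33 and Dkk3 were not called without DMM 4 weeks replicate 2 (adjusted p = 0.0634, 0.16 and 0.226), Aspn and Dkk3 also not without replicate 3 (adjusted p = 0.0685 and 0.158), Il33 not without DMM 8 weeks replicate 1 or 3 (adjusted p = 0.0833 and 0.0745), and Dkk3 not without any of the 8-week pools (adjusted p = 0.0643 to 0.161). Of 141 called genes that were listed for description, 72 kept the call with each of the 6 pools left out in turn.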

How the data were processed

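Log2 signals from 26 Affymetrix mouse genome arrays, 1 array per pool of RNA from 3 mice, were used as deposited by the authors, who scaled the arrays to each other by systematic variation normalization (SVN). The software version is not given in the sources used here. Medians of the arrays were 7.90 to 7.95. Array data carry no read depth, and the number of arrays limits the precision. Of 45101 probe sets (64 of them controls), 34945 had 1 gene symbol in the platform annotation, 932 several and 9160 none, and only those with 1 symbol were named.

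The 22452 probe sets whose log2 signal averaged over 7.93, the median of all values, were tested. The test was limma 3.58.1 in R 4.3.3, fitted to the 26 arrays together with a term for every condition (leaving 17 degrees of freedom), with empirical Bayes moderation and Benjamini-Hochberg adjustment over all probe sets tested, and a call at an adjusted p under 0.05. The contrasts were DMM 8 weeks minus DMM 4 weeks, sham 8 weeks minus sham 4 weeks, and the difference between these. SEs are the moderated ones of this fit. P-values rest on the spread between pools within conditions, with the variance of each probe set shared by all conditions of the fit. For genes called at least 2-fold lower, the median SD was 0.432 in DMM 4 weeks pools and 0.124 in DMM 8 weeks pools. SEs of such genes can therefore understate the spread of the DMM 4 weeks pools, and their p-values can be too small. A permutation test of 3 against 3 pools could not go below 0.1. A gene was represented by its brightest tested probe set, and its other probe sets are given where they differed in call or size for a gene that a comparison turned on. The filter used the mean over all arrays, so a gene could pass it through groups where it was high. The fit was tested on simulated data.

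The members and the 43 gene lists were chosen with earlier results of these data known. Genes were named as the 12 called genes with the highest and the 12 with the lowest difference, as the brightest members and those with the largest difference of each list (up to 3 of each), and as the genes of the real-time PCR. The other names, among them the called members listed beside a count, Kcne4, Irf8 and genes named for the difference between DMM and sham joints, were chosen after their values were seen. Promoters were taken from RefSeq (GRCm38.p6), which matched 9294 of the 11502 genes tested. Alternatives were other signal filters, other sets of arrays in the fit, array weights, quantile normalization, an intensity trend in the variance, muscle or RNA integrity covariates, a replicate block, a minimum difference, the mean of all probe sets of a gene, and leaving out each pool in turn.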

Additional observations from a re-analysis of the deposited data

Results flagged for a closer look

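The change between 8 and 4 weeks differed between DMM and sham joints, in limma's test of the difference itself, for 358 probe sets. Among the genes described, the change in DMM joints minus the change in sham joints was negative for the secreted proteins and collagen enzymes Spon1 (-1.36), Lox (-1.35), P4ha2 (-1.19), Col4a2 (-1.03), Adamts1 (-0.77) and P3h1 (-0.55), and for the membrane protein Gpm6b (-1.49). Lox, P4ha2 and P3h1 were 3 of 17 collagen processing genes, Col4a2 was 1 of 20 collagens and Adamts1 was 1 of 22 matrix proteases and inhibitors. Spon1 was in none of the lists and was picked after its values were seen. It was negative for the transcription factors Tbx15 (-1.16), Hif1a (-1.14), Clock (-0.98), Hoxa10 (-0.94), Erg (-0.81), Hoxc10 (-0.77) and Zeb1 (-0.52), for the signalling genes Tgfb3 (-0.77) and Bmpr1a (-0.75), and for Pde7b (-1.21), Msrb3 (-1.17), Cog7 (-0.92), Peg3 (-0.80), Ugp2 (-0.63) and Txnrd1 (-0.35). Irf8 was the 1 of these genes with a positive value (0.48). Cog7, Erg and Txnrd1 were not called within DMM joints, where their differences were -0.19, -0.24 and -0.15, against 0.73, 0.57 and 0.21 in sham joints.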

How the results depend on the processing

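Precision was limited by 3 pools in each group. Between DMM 8 weeks and DMM 4 weeks, the 3914 calls (1405 higher, 2509 lower) became 2524 (658 higher) with only the compared arrays in the fit, 8813 (4512 and 4301) with array quality weights, estimated gene by gene because the default estimate did not converge, and 1189 (127 and 1062) with a log2 difference of at least 0.5. Leaving out 1 pool gave 1188 to 5854 (165 to 2671 higher, 1005 to 3183 lower). The sham comparison gave 1 call (1 higher) without a signal filter, 217 (159 and 58) with array weights and 0 to 34 with 1 pool left out (0 to 30 higher, 0 to 7 lower). The 358 calls for the difference between DMM and sham joints (44 higher, 314 lower) became 62 (4 and 58) without a filter, 0 (0 and 0) with only the compared arrays, 7019 (3283 and 3736) with array weights, 3292 (1250 and 2042) with the muscle covariate, 1 (0 and 1) with the Gapdh covariate and 0 to 3661 with 1 pool left out (0 to 1529 higher, 0 to 2132 lower). The higher calls were 73 after quantile normalization and 16 with the minimum difference. The cause was not tested. Same-numbered DMM pools correlated at 0.511, 0.029 and 0.040, so the numbers did not pair them. With a replicate block the calls were 4507 in DMM joints (1778 higher, 2729 lower) and 733 (179 and 554) for the difference between surgeries. Of the 2220 genes called, 1294 remained with only the compared arrays, 2219 with array weights, 2187 with the block and 702 without DMM 4 weeks replicate 2. Scx (-0.04) ranged over -0.13 to 0.05 with 1 pool left out (0.00 without DMM 4 weeks replicate 3, 0.05 without DMM 8 weeks replicate 1), Hspa5 (-0.12) over -0.25 to 0.03 (0.03 without DMM 4 weeks replicate 2), and Nr4a2 (1.13) was -0.44 as the mean of all its tested probe sets.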

Other observations

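Probe sets of the same gene disagreed for Nr4a2, an immediate early nuclear receptor. Its brightest probe set had signals of 10.65, 10.48 and 9.86 in DMM 8 weeks pools and 9.71, 8.45 and 9.44 in DMM 4 weeks pools, a difference of 1.13 ± 0.40 that did not pass the test (adjusted p = 0.0573), while the other 3 tested probe sets of Nr4a2 were called lower.

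Few genes of antigen presentation passed the test. Of 9 tested, the peptide loading genes H2-DMa (0.35, adjusted p = 0.0162) and H2-DMb2 (0.41, adjusted p = 0.0343) were higher and Ctss, a cathepsin, was lower (-0.32, adjusted p = 0.0455), and none of the 3 was called without DMM 4 weeks replicate 2 or replicate 3.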
